A study of Mus musculus with 2 samples.

Results

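Contractile periderm cells are described here: single cells of the E12.0 mouse mandibular epithelium that held transcripts of surface layer genes together with transcripts of the smooth muscle genes Tagln and Acta2. They were chosen by measured values. A cell was taken when its raw UMIs (distinct transcript molecules) of Ppl, Pkp1, Grhl3 and Nebl summed to at least 3, called its periderm UMIs below, and its UMIs of Tagln and Acta2 summed to at least 2. The rule found 94 cells among the 11355 kept cells of the E12.0 library, or 0.828%. The E9.5 library of the study, whose 23 cells under the same rule are described last and are not among the 94, brings the kept cells of both libraries to 24099.

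The periderm is the flattened outermost layer that forms early over embryonic epithelia and keeps apposed surfaces from fusing until the epithelium beneath has stratified. Its cells are held together by desmosomes and tight junctions, and transcription factors such as GRHL3 act in its formation. Smooth muscle actin and its partners (transgelin, calponins, tropomyosins and myosin light chains) form actin-myosin cables that pull on cell junctions. They are best known from smooth muscle and myofibroblasts, and epithelial cells can express them as well.

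The study compared regions of the mandibular epithelium in the mouse. At E12.0, GFP-positive cells were sorted from the peeled mandibular epithelium of K14Cre;R26mT/mG embryos, 6 littermates that were pooled, and at E9.5 unsorted epithelial and mesenchymal cells came from the mandibular arches of 8 pooled embryos of the same genotype. In these embryos a Cre under the keratin 14 promoter switches a reporter from tdTomato to GFP, so that a cell needed a history of keratin 14 promoter activity to enter the E12.0 library. Neither stage had a treatment, and each was 1 library of the 10x Genomics 3′ assay, with no replicate. Embryos cannot be told apart within a library, so intervals below are 95% intervals that cover counting error only, and no test was possible. The E12.0 library held 78911671 UMIs. The cells kept had 200 to 5500 genes and at most 10% mitochondrial UMIs, with a median of 6349 UMIs. The libraries shared 51 cell barcodes.

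The 94 cells were set beside 2 groups of the same library. The first was 360 cells with at least 3 periderm UMIs and no Tagln or Acta2 UMI, called negative periderm. This group can also hold suprabasal cells, which express part of the same genes and cannot be told apart from periderm by this rule. The second was 8921 cells with no periderm UMI. Expression is given as CPM, the UMIs of a gene summed over the cells of a group and scaled to a total of 1000000 UMIs for that group, and differences as the log2 ratio of 2 CPM values. The contractile cells were the deeper sequenced, with 4033 to 20363 UMIs per cell and a median of 7690, against medians of 6021 in negative periderm and 6279 in cells without periderm UMIs. Both comparisons use the same 94 cells.

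The values that chose the cells follow as a description. Tagln encodes transgelin, an actin cross-linking protein, and lies at chr9:45929619-45936058 (GRCm38). It had 0, 4 and 48 UMIs in the lowest, median and highest contractile cell and was found in 89 of them. Acta2, at chr19:34241090-34255590, encodes smooth muscle alpha-actin. It had 0, 1 and 18 UMIs and was found in 60 cells. Both genes were present in 55 cells, Tagln alone in 34 and Acta2 alone in 5. The summed CPM was 756 for Tagln and 324.5 for Acta2, against 13.4 and 2.94 in cells without periderm UMIs. There, 6.46% of cells had a Tagln UMI and 1.502% an Acta2 UMI, and free RNA and low expression cannot be told apart there.

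The share of cells with at least 2 Tagln or Acta2 UMIs was 1.81% (exact binomial interval 1.54 to 2.10%) among cells with no periderm UMI. It was 1.90% with 1 periderm UMI, 5.75% with 2, 12.8% with 3, 9.86% with 4 and 23.4% with 5 or more. Among all 503 cells with at least 3 periderm UMIs it was 18.7% (15.4 to 22.4%). The share was thus lowest where periderm transcripts were absent and highest in the cells with most of them. Counts per contractile cell ran from 2 to 48 Tagln and Acta2 UMIs with a median of 6, and from 3 to 21 periderm UMIs with a median of 6.

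**Figure D1:**
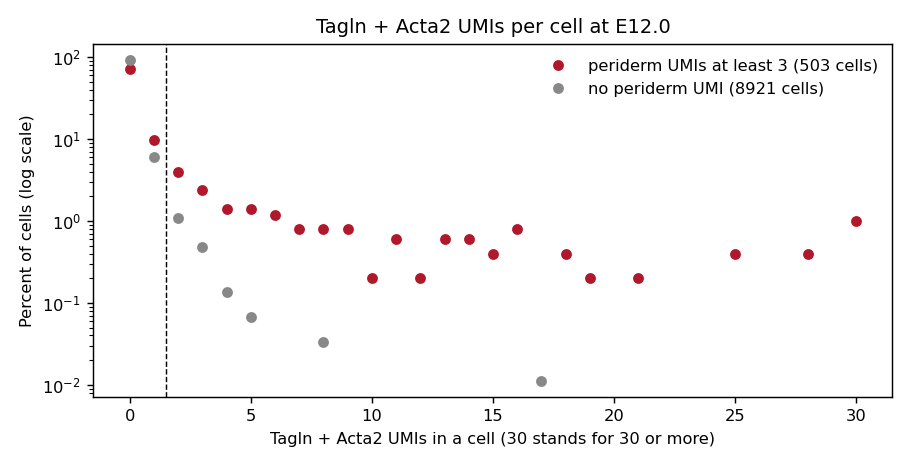
Percent of E12.0 cells (log axis) by the number of Tagln and Acta2 UMIs in a cell, for the 503 cells with at least 3 periderm UMIs (red) and the 8921 cells with none (grey); the dashed line marks the limit of 2 UMIs. Red points reach 30 or more UMIs, whereas the share among grey cells falls away within a few UMIs.

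The periderm genes of the rule were about as abundant in contractile as in negative periderm cells. Ppl, which encodes the cornified envelope protein periplakin, stood at 331 against 338 CPM. Pkp1, a desmosomal plakophilin, stood at 199 against 213 CPM, and the transcription factor gene Grhl3 at 124 against 115 CPM. Nebl, which encodes the actin-binding protein nebulette, stood at 146 against 187 CPM. All 4 genes were found together in 31 contractile cells, Ppl in 80, and in no cell did Nebl alone supply the periderm UMIs.

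The comparison with negative periderm asks what else differs with Tagln and Acta2 among cells with at least 3 periderm UMIs. That with cells without periderm UMIs asks how far the contractile cells stand from the rest of the epithelium. A gene was examined when at least 15% of the cells of either group had a UMI. It was called raised or lowered when the ratio of CPM values, each with 5 CPM added, was at least 1.5 or at most its inverse and the interval of the plain ratio did not include 1. The 6 genes of the rule were left out. A gene found in at least 15% of the cells of only the higher group had to differ to be examined, so that the filter favours the ratios of such genes. Among genes named below and not marked so again, Msn, Pkp2 and Dsg3 were examined through the contractile cells alone against negative periderm, and Cldn3, Lama3, Otx1, Lmo1 and Robo2 through negative periderm alone. Against negative periderm, 277 of 6924 genes examined were raised (4.00%) and 223 lowered (3.22%). Against cells without periderm UMIs, 581 of 6902 were raised (8.42%) and 348 lowered (5.04%). Of the genes raised, 112 in the first comparison and 288 in the second were examined through the contractile cells alone, and of those lowered 74 and 121 through the other group alone. The median log2 ratio over all genes examined was 0.01 in the first comparison and -0.00 in the second.

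Other markers bore on the label. Every contractile cell had a UMI of the basal keratins Krt5 or Krt14, 92 had Krt14 and 85 had Epcam, an epithelial adhesion molecule. Among cells without periderm UMIs, 86.75% had Krt14 and 82.66% Epcam, so these genes do not mark a layer. Of 12 epithelial identity genes, none was raised and Krt8 alone was lowered against negative periderm, counts near the shares of all genes (4.00 and 3.22%). The periderm regulator Zfp750 (99.6 against 110 CPM) and the surface gene Sfn (650.3 against 589 CPM) had values close to those of negative periderm, and Zfp750 was at 1.09 CPM without periderm UMIs. These measurements go with the label periderm, with the keratins of the basal layer present too.

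Markers of other contractile cells were at or near 0. Of 10 smooth muscle and pericyte genes, 6 had no UMI in the 94 cells, and 47 of their 60 UMIs belonged to Notch3, a receptor that negative periderm also had (57.8 against 69.3 CPM). The summed level of the 10 genes was 73.8 CPM in contractile cells, 74.5 in negative periderm and 15.3 in cells without periderm UMIs. Desmin (Des) and Myocd, which encodes the smooth muscle coactivator myocardin, were at 0. The smooth muscle myosin heavy chain gene Myh11 had 10 UMIs in 5 cells and none in negative periderm. Of 8 skeletal and cardiac muscle genes 6 were at 0, with 5 UMIs in all, and all 8 endothelial genes were at 0. Blood genes gave 2 UMIs (Alas2), leukocyte genes 1 (Csf1r), and 8 neural and neural crest genes 25, of which 18 were Tubb3, the neuronal tubulin.

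The mesenchymal list stood apart through a single gene. Its 12 genes summed to 591 CPM against 436 in negative periderm and 516 without periderm UMIs, and 6 of them had no UMI. Vim, the intermediate filament vimentin and the most abundant of them, was raised, at 338 against 157 and 119 CPM. Sparc, a matrix protein gene, had 237 against 257 and 352 CPM. The part of Vim-rich cells in the results below was not tested. Scrublet, which scores cells against simulated mixtures of 2 cells, called 15 contractile cells doublets (15.96%, 9.22 to 24.95%), 38 of the negative periderm cells (10.6%, 7.58 to 14.2%) and 4.47% of the cells without periderm UMIs. Doublets were kept. Without them 79 contractile cells remained. The contractile list given below had medians of at least 0.99 against negative periderm and 1.38 against cells without periderm UMIs under every alternative, this one included. Cells with a Y-linked UMI numbered 56, and 24 had an Xist UMI and none from the Y chromosome, so the group drew on embryos of both sexes.

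Genes of smooth muscle actin, myosin and actin-binding proteins were raised together. Of the 24 genes on this list besides Tagln and Acta2, 14 were examined. Against negative periderm 12 were raised and none lowered (4.00 and 3.22% of all genes), with a median log2 ratio of 1.11 beside 0.01 over all genes. Against cells without periderm UMIs 13 were raised and none lowered (8.42 and 5.04% of all genes), with a median of 1.55. Of these, Tpm2 in both comparisons, and Myl9 and Csrp1 in the second, were examined through the contractile cells alone, which favours the counts and medians. With all cells thinned to 4100 UMIs, the 14 examined genes had medians of 1.28 and 1.70. This equals the depth of the counts compared, but the groups were still those chosen on raw counts. These medians are the top of the ranges over all alternatives (0.99 to 1.28 and 1.38 to 1.70). The rule applied after thinning took 47 cells, with medians within these ranges.

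Myl9 (chr2:156775420-156781658), which encodes the regulatory light chain of smooth muscle myosin, had the largest ratio of the 14 examined genes. Each cell had 0 to 10 Myl9 UMIs, and the gene was found in 68 contractile cells. Its level was 240 CPM (exact Poisson interval 207 to 276) against 39.8 (32.4 to 48.4) in negative periderm and 15.7 in cells without periderm UMIs, with log2 ratios of 2.59 (2.24 to 2.95) and 3.93 (3.70 to 4.15). After each cell was thinned to 4100 UMIs, Myl9 was found in 53.8% of contractile and 12.3% of negative periderm cells. Without thinning these shares were 72.3 and 19.7%. The groups overlapped, since many contractile cells had no Myl9 UMI at that depth.

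Genes of tropomyosins, which lie along actin filaments, were raised as well. Tpm1 was in every contractile cell, at 1958 CPM against 836 and 709, a log2 ratio of 1.23 (1.13 to 1.32) to negative periderm. Its thinned UMIs had a median of 7 per cell against 3, and a range of 0 to 25 against 0 to 16. Tpm2 was at 46.7 against 11.4 CPM (log2 ratio 2.03) and Tpm4 at 510.1 against 313 CPM (0.70). Tropomyosin, actin, calponin and keratin genes have close relatives in the genome, and reads of near-identical stretches may be divided between them.

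Several regulators and cross-linkers of actin moved the same way. Cnn2, which encodes calponin 2, an inhibitor of myosin ATPase activity, was at 406 against 149 CPM, with a log2 ratio of 1.45 (1.23 to 1.67). Csrp1, a LIM domain protein of actin bundles, was at 154 against 48.5 CPM (1.67, 1.29 to 2.04). The filamin gene Flna was at 473 against 223 CPM (1.09), and the gene of vinculin, Vcl, which links actin to junctions, at 214 against 98.1 CPM (1.13). Cald1 (caldesmon), Myl6 (myosin essential light chain), Csrp2 and Tagln2 were also raised, with log2 ratios of 0.91, 0.92, 0.82 and 1.31. Cnn3 (400 against 279 CPM) and Pdlim7 (51.6 against 35.1 CPM) did not reach the criterion against negative periderm and did against cells without periderm UMIs. Cald1 was the reverse, at 1047 against 756 CPM in the latter (log2 ratio 0.47).

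**Figure D2:**
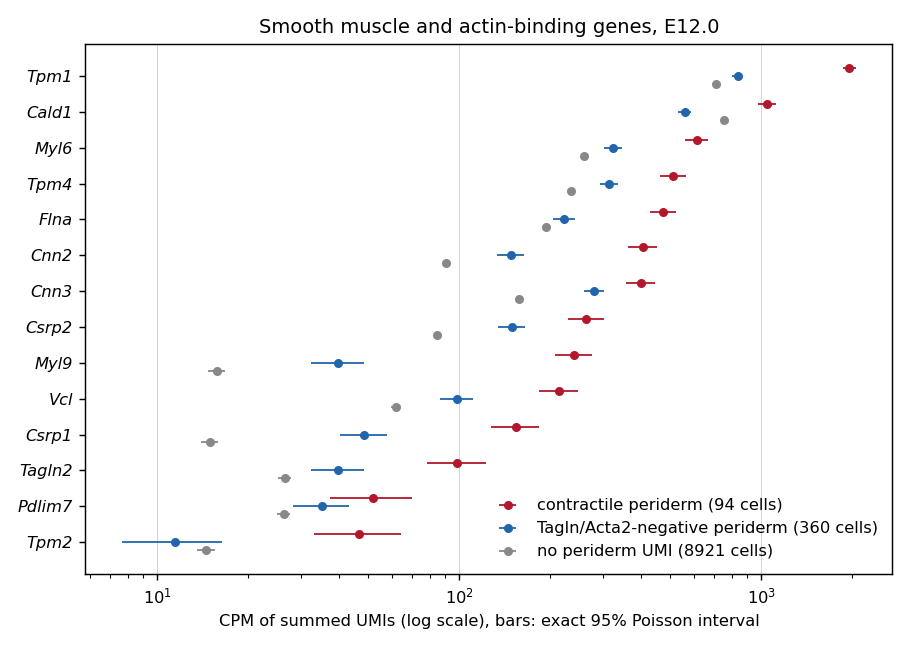
CPM (log axis) of the 14 examined smooth muscle and actin-binding genes in the 94 contractile cells (red), 360 negative periderm cells (blue) and 8921 cells without periderm UMIs (grey), with exact 95% Poisson intervals as bars. The red point lies to the right of the blue point for each gene, farthest for Myl9, where it stands at 240 against 39.8 CPM.

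Later markers of smooth muscle were low. The basic calponin gene Cnn1 had 2 UMIs (2.46 CPM), Mylk, the myosin light chain kinase, 1 UMI (1.23 CPM), and the enteric actin gene Actg2 6 UMIs (7.38 CPM, against 0.394 CPM or 1 UMI in negative periderm). A count of 3 in the 94 cells would be 3.69 CPM. Cnn1, Mylk, Des and Myocd were under that level. Actg2 and Myh11 (12.3 CPM) were above it and higher than in negative periderm, on few UMIs, and neither was found in enough cells to be examined.

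The raised genes include known targets of serum response factor (SRF), which binds the CArG box, CC followed by 6 A or T bases and GG. RefSeq promoter windows (GRCm38.p6, 250 bases before to 50 after each start) were found for 20 of the 24 listed genes, and 4 of them held the box: Myl9, Cnn2, Vcl and Myl6. It was in 1.63% of all 32851 windows and in 1.81% of the 27025 genes that had one. Of the genes examined, 5392 had a window and 1.71% of these held the box, against 4.93% of 203 genes raised and 2.30% of 174 genes lowered against negative periderm. These shares rest on 10 raised and 4 lowered genes, and the 10 include Myl9, Cnn2, Vcl and Myl6 of the list. An action of SRF on these genes was not tested. Of the genes of the rule, Nebl held it and the windows of Acta2 and Grhl3 did not. The stretches around the box in these 4 genes are shown, and 1 of 2 stretches of Acta2 that differ from the box by 1 base, since Acta2 is a gene of the rule. Capitals mark the 10 bases of the match, which reads alike on both strands in its pattern.
Myl9, chr2:156775268-156775347, plus strand: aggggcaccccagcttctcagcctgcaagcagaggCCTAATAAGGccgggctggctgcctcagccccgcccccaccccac
Cnn2, chr10:79988509-79988588, plus strand: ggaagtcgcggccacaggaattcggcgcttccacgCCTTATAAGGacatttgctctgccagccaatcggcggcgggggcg
Vcl, chr14:20929148-20929215, plus strand: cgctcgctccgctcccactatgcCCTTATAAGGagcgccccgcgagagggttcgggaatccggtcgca
Myl6, chr10:128493015-128493094, minus strand: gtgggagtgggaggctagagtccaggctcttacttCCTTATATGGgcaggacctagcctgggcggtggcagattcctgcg
Acta2, chr19:34255413-34255492, minus strand: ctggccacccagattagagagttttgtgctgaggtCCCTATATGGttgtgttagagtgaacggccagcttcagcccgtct

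The box lay 161 to 152 bases before the start of Myl9, 56 to 47 before Cnn2, 227 to 218 before Vcl and 50 to 41 before Myl6. Starts here are those of the promoter windows, and for Myl9, Cnn2, Myl6 and Acta2 they lie inside the gene interval of the GENCODE annotation. The near matches lay 84 to 75 (shown) and 34 to 25 bases before the start of Acta2, and such near matches, searched after that promoter had been seen, were in 8.499% of all windows. A grainyhead-type motif, AACCGGTT, was in 0.146% of windows and in none of the listed or rule genes. The TEAD-type motif GGAATG, searched on both strands, was in 14.7% of windows. By gene it was in 16.6% of all with a window and in 13.2% of those examined. Of the 20 listed genes with a window, 8 held it (40%): Cald1, Flna, Lmod1, Mylk, Smtn, Tagln2, Tpm1 and Vcl. Of the rule genes, Acta2 and Nebl held it. A match is a run of letters and was not tested as a binding site. No window was found for Tagln, Ppl, Pkp1, Myh11, Actg2, Csrp2 and Myocd.

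The general actin and myosin genes differed less. Beta-actin (Actb) was raised, at 4131 against 2717 CPM (log2 ratio 0.60), and gamma-actin (Actg1), at 3189 against 2177 CPM (0.55), did not reach the criterion. Acta2 made up 4.24% (3.75 to 4.77%) of all actin UMIs of the contractile cells and 0.0627% of those of cells without periderm UMIs, which restates the choice of cells by Acta2. The striated muscle actins Acta1 and Actc1 were at 0. Of 7 examined genes of actin and non-muscle myosin, Actb, the myosin IIB heavy chain gene Myh10 (660.1 against 329 CPM) and the light chain gene Myl12a (412 against 257 CPM) were raised and none was lowered (4.00 and 3.22% of all genes), with a list median of 0.55. Myh9, the heavy chain of myosin IIA, was at 722 against 520 CPM. Myh14, the heavy chain of myosin IIC, was at 73.8 against 60.7 CPM and 7.13 CPM in cells without periderm UMIs, against which it was raised, examined through the contractile cells alone.

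Most regulators of actin were not called against negative periderm. Among 18 examined, 4 were raised and 1 lowered (4.00 and 3.22% of all genes). The count lowered is near the share of all genes, and 15 of the 18 had log2 ratios above 0. Raised were the actin monomer-binding gene Tmsb4x (3984 against 2393 CPM), Actn1 (alpha-actinin, 150.0 against 78.8), Anln (anillin) and Msn (moesin). Lowered was Rhov, an atypical small GTPase gene, at 27.0 against 51.2 CPM, and almost absent without periderm UMIs, at 0.150 CPM. The median of these 18 was 0.19. The LIM kinase gene Limk2 (224 against 185 CPM) and Pdlim5 (65.2 against 60.3 CPM) had nearly the same level in both periderm groups and were raised against cells without periderm UMIs, at 44.7 and 16.7 CPM there, with Pdlim5 examined through the contractile cells alone. Diaph3, a formin that builds unbranched actin, was not on the list and was among the genes with the largest ratios, at 195 against 67.8 CPM (log2 ratio 1.53). So was Nexn, the actin-binding protein nexilin, at 32.0 against 9.06 CPM (1.82).

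The contractile genes were graded in the periderm. The 503 cells with at least 3 periderm UMIs were divided by their Tagln and Acta2 UMIs into 360 cells with 0, 49 with 1, 20 with 2, 19 with 3 or 4, and 55 with 5 or more. Myl9 stood at 39.8, 130, 105, 134 and 329 CPM in these steps. Cnn2 stood at 149, 245, 298, 281 and 491 CPM, and Flna at 223, 334, 358, 409 and 540 CPM. For each, the lowest value was in cells with none and the highest in cells with most, and the middle 3 steps lay within each other's intervals for Myl9. Ppl, a gene of the rule by which all 5 steps were chosen, was at 338, 311, 342, 373 and 312 CPM.

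At the edge of the rule, the 20 cells with 2 Tagln or Acta2 UMIs and the 49 cells just outside it with 1 UMI had similar values. Myl9 was at 105 inside and 130 CPM outside, Tpm1 at 1311 and 1364 CPM, and Cnn2 at 298 and 245 CPM. Krt17 was at 154 and 66.3 CPM. For the other limit, the 17 contractile cells with 3 periderm UMIs had 150 CPM of Myl9 and the 20 cells with 2 had 187 CPM. Apart from Krt17, these values showed no step at the limits of the rule. Of the contractile cells, the 48 with at least 6 Tagln or Acta2 UMIs had 339.5 CPM of Myl9 and 2410 CPM of Tpm1.

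Cells with both genes had more Myl9, Cnn2 and Krt17 than those with Tagln alone, and about as much Csrp1. These cells were not matched for their number of Tagln and Acta2 UMIs, and Myl9, Cnn2 and Krt17 were highest at 5 or more UMIs. Presence of both genes and their amount cannot be told apart here. Myl9 was at 315 CPM (266 to 371) in the 55 cells with Tagln and Acta2 and at 148 CPM (108 to 197) in the 34 with Tagln alone. In the 5 cells with Acta2 alone it was at 88.7 CPM (24.2 to 227), below the interval of cells with both genes and overlapping that of cells with Tagln alone. Krt17 was at 404 CPM in cells with both genes and at 167 CPM with Tagln alone, and Csrp1 was at 151 and 164 CPM. Cnn2 was at 477 CPM (416 to 544) with both genes and 295 CPM (237 to 363) with Tagln alone. With Acta2 alone it was at 421 CPM (254 to 658), which overlaps both.

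Whole profiles showed the same gradation. The periderm cells were thinned to 4100 UMIs, and the 15 nearest neighbours of each of 457 cells were found from 2000 variable genes without the 6 genes of the rule. Contractile cells were 20.4% of these cells and 44.7% of the neighbours of a contractile cell on average. They were 15.1% of the neighbours of negative periderm cells and 29.7% of those of cells with 1 Tagln or Acta2 UMI. The share was 51.9% around the 48 cells with at least 6 UMIs and 33.3% around cells with 2.

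**Figure D3:**
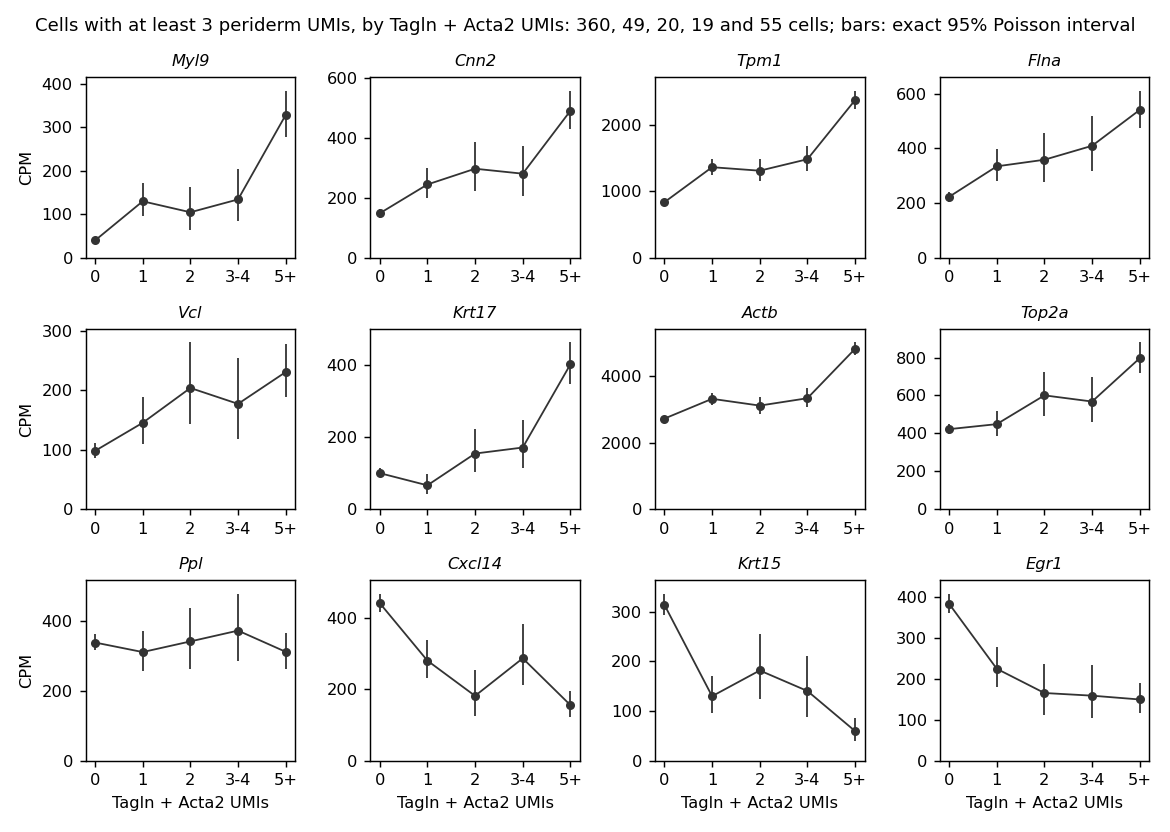
CPM of 12 genes in cells with at least 3 periderm UMIs, divided by the Tagln and Acta2 UMIs of a cell (0, 1, 2, 3 to 4, and 5 or more); bars are exact 95% Poisson intervals and each axis starts at 0. Myl9, Cnn2, Tpm1, Flna and Actb were highest in the last step, Ppl is a gene of the rule, and Cxcl14, Krt15 and Egr1 were highest in cells with no Tagln or Acta2 UMI.

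Genes of pathways that act on contractile genes had no common direction. Of 11 examined response genes of SRF, its cofactors and YAP, 2 were raised and 2 lowered against negative periderm (4.00 and 3.22% of all genes), with a median of 0.14. The LIM domain genes Fhl2 (55.3 against 18.1 CPM, log2 ratio 1.61) and Fhl1 (39.3 against 16.2 CPM) were raised, both examined through their share in contractile cells alone. The immediate-early gene Egr1 (155 against 383 CPM, -1.31) and Cyr61, a matricellular YAP target (28.3 against 58.7 CPM), were lowered. Cyr61 was also lowered against cells without periderm UMIs (119 CPM), whereas Egr1 was raised against them (80.6 CPM, log2 ratio 0.94, and 0.29, without the call, among cells with Xist and no Y-linked UMI). Srf itself was at 71.3 against 54.4 CPM, and Ctgf had 1 UMI.

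TGF-beta is a known inducer of smooth muscle actin in other cells. Of 9 examined genes of its ligands, receptors and responses none was raised or lowered against negative periderm, with a median of -0.02; with 4.00 and 3.22% of all genes called, a count of 0 among 9 is no result on the pathway. The ligand gene Tgfb2 was at 88.5 against 86.7 CPM, and the inhibitory Smad gene Smad7 at 204 against 207 CPM. Against cells without periderm UMIs Tgfb2 (39.4 CPM there) and Itgb6, an integrin that activates TGF-beta, were raised, both examined through the contractile cells alone.

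Surface layer genes were high in both periderm groups. Of 21 examined, 19 were raised against cells without periderm UMIs (8.42% of all genes were), with a median log2 ratio of 1.45. Since the cells were chosen by genes of this layer, that count is a description of the choice, and 9 of the 19 were examined through the contractile cells alone. Against negative periderm 2 were raised and 1 lowered, with a median of 0.14, shares near those of all genes (4.00 and 3.22%). Anxa1, an annexin, was raised at 301 against 165 CPM (log2 ratio 0.87), and Krt8, a keratin of simple epithelia, was lowered at 76.2 against 124 CPM (-0.70). The claudin gene Cldn4 (102 against 80.0 CPM), Klf7 (172 against 116) and Grhl1 (13.5 against 24.0) did not pass or were not examined.

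Krt17, a keratin of periderm and of stressed or migrating epithelium, was raised at 299.9 against 100 CPM (log2 ratio 1.58, 1.32 to 1.84), but unevenly. It was found in 47 of the 94 cells, with up to 22 UMIs in 1 cell, and the 10 highest cells held 59.0% of its UMIs. After thinning, 41.9% of contractile and 18.0% of negative periderm cells had a Krt17 UMI. Among cells with no UMI of the proliferation genes Mki67 and Top2a (27 contractile and 190 negative periderm cells), a division added after seeing the data, the log2 ratio was 0.04 and the call was lost.

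Basal, desmosomal and junctional genes gave a mixed picture. Of 14 basal epithelial genes, the cytolinker gene Dst was raised (736 against 413 CPM) and 3 were lowered against negative periderm: Krt15 (103 against 314 CPM, -1.61, and -2.72 among cells with at most 5% mitochondrial UMIs), Col17a1, the hemidesmosomal collagen XVII (34.4 against 69.0), and the laminin gene Lama3 (18.4 against 33.9). Over all genes 4.00% were raised and 3.22% lowered. The median of the 14 was 0.09. Krt14 was at 1594 against 1082 CPM and Krt5 at 982 against 863 CPM. The basal regulator Trp63 was at 159 against 193 CPM, and was lowered against cells without periderm UMIs (258 CPM). All 10 desmosome and cornified envelope genes were raised against those cells (8.42% of all genes were), with a median of 1.95, but Evpl, Dsc2, Pkp2 and Dsg3 were examined there through the contractile cells alone. Pkp2 and Dsg3 were also raised against negative periderm, again examined through the contractile cells alone (list median 0.23). Dsp, which encodes desmoplakin, was at 2221, 1851 and 735 CPM in the 3 groups, Jup (plakoglobin) at 243, 202 and 58.4, and the desmocollin gene Dsc3 at 275, 312 and 76.8. Of 13 tight junction and polarity genes, none was raised and the claudin gene Cldn3 was lowered against negative periderm (13.5 against 37.4 CPM, list median -0.01), near the shares of all genes (4.00 and 3.22%), and Cldn3 was examined through negative periderm alone. Against cells without periderm UMIs 10 of 12 were raised (8.42% of all genes), of which Cldn4, Ocln, Marveld2, Cgn, Crb3 and Cldn1 were examined through the contractile cells alone.

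The Notch receptor gene Notch1 was high in both periderm groups. Of 8 examined Notch pathway genes none was raised or lowered against negative periderm (median -0.33), a count near the shares of all genes (4.00 and 3.22%). Against cells without periderm UMIs 6 were raised and Jag2 lowered (8.42 and 5.04% of all genes, list median 1.34), but Notch2, Notch3, Nrarp and Hey1 were examined there through the contractile cells alone. Notch1 was at 459 CPM in contractile cells, 534 in negative periderm and 44.2 in cells without periderm UMIs. Notch2 was at 50.4, 42.6 and 19.1 CPM. The target gene Hes1 was at 118, 166 and 91.5 CPM, and Hes5 had 7 UMIs in the contractile cells. Raised with the receptors were the ligand gene Jag1, the Notch inhibitor Nrarp and the target Hey1.

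**Figure D4:**
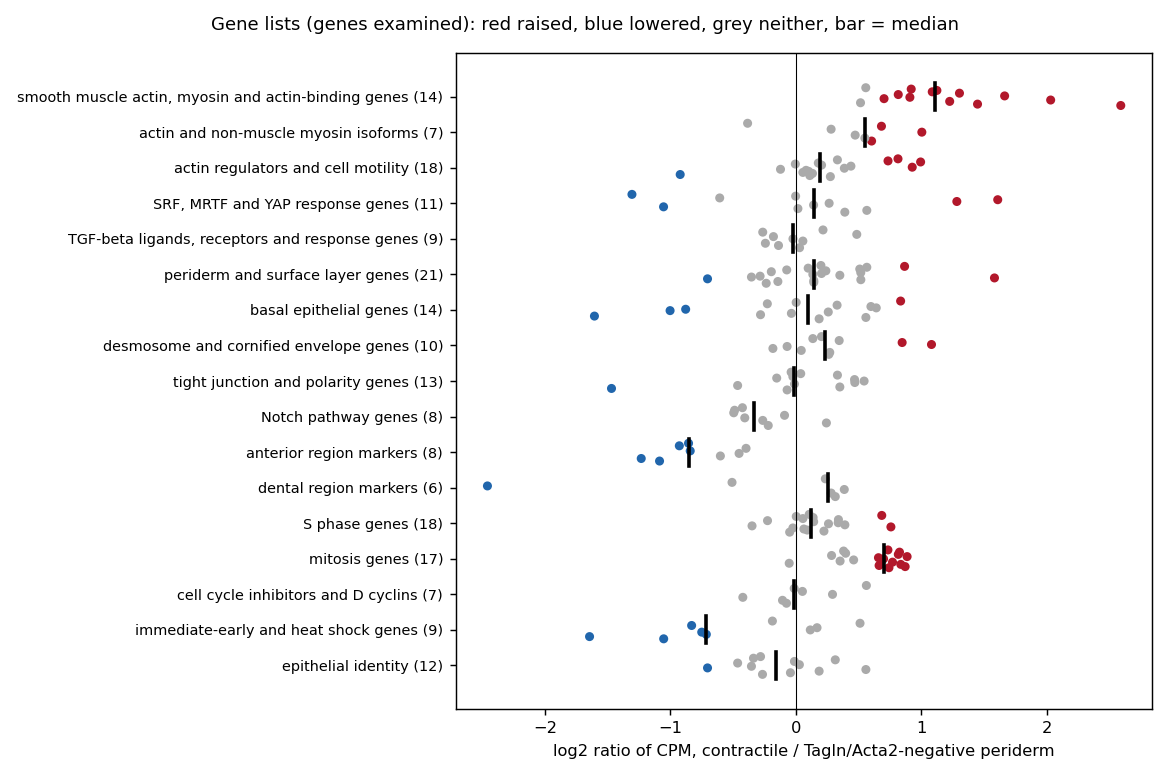
Log2 ratio of CPM between contractile and negative periderm cells for each examined gene of the gene lists with at least 5 examined genes; red points were raised, blue lowered and grey neither, and black bars are list medians. The smooth muscle and actin-binding list has the largest median (1.11) and the anterior region markers the lowest (-0.85). The lowest rank rests on genes examined through negative periderm alone. Over genes that passed the filter in both groups, the anterior median was -0.60 and that of immediate-early and heat shock genes was lower, at -0.71.

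Markers of the anterior (aboral) mandibular epithelium were low. Of 8 examined, 5 were lowered and none raised against negative periderm (3.22 and 4.00% of all genes), with a median of -0.85, and 8 of 9 were lowered against cells without periderm UMIs (5.04% of all genes), with a median of -1.66. Through the other group alone were examined 3 of the 5 and 4 of the 8, which favours these counts and medians. Among the 5 genes that passed the filter in both groups, 2 were lowered against negative periderm, with a median of -0.60. Of the 5 such genes in the comparison with cells without periderm UMIs, 4 were lowered, with a median of -1.27. The chemokine gene Cxcl14 stood at 188 CPM against 442 and 884, with log2 ratios of -1.23 and -2.23. Without called doublets these were -2.52 and -3.81, and among cells with at least 5 periderm UMIs the ratio to negative periderm was -0.61. The transcription factor gene Tfap2b stood at 108 CPM against 229.7 and 433, with a log2 ratio to negative periderm of -1.09, which was -2.53 without called doublets and -0.57, without the call, among cells with at least 5 periderm UMIs. A few cells carried most of them, since the 10 highest cells held 81.7% of the Cxcl14 and 79.6% of the Tfap2b UMIs. Otx1, Lmo1 and Robo2 were lowered as well. Fst, the activin inhibitor follistatin on the dental list, was lowered, at 8.60 against 47.3 CPM. Irx1 and Irx2 were raised against cells without periderm UMIs, examined through the contractile cells alone, and neither of 2 examined posterior markers was raised or lowered in either comparison. The posterior gene Nkx2-3 was at 109 against 86.3 CPM. Of the posterior genes found in too few cells, Foxa1 was at 2.46 against 12.2 CPM, Pax9 and Dmrt2 each at 3.69 against 9.46 CPM, Col14a1 at 4.92 against 7.49 CPM and Zcchc5 at 1.23 against 2.36 CPM. Among cells with no Cxcl14 or Tfap2b UMI (61 contractile and 164 negative periderm cells), the 14 contractile list genes examined had a median log2 ratio of 1.24.

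Mitosis genes were higher than in negative periderm. Of 17 examined mitosis genes, 11 were raised against negative periderm (4.00% of all genes were), with a median of 0.70, and 1 of these, Aurkb, was examined through the contractile cells alone. Top2a, the topoisomerase of mitotic chromosomes, was at 707 against 422 CPM (log2 ratio 0.74, and 0.32, without the call, among cells with at most 5% mitochondrial UMIs), and the proliferation marker Mki67 at 570.4 against 312 CPM. In cells without periderm UMIs these stood at 600.4 and 478 CPM, no mitosis gene was raised against them, and the cyclin gene Ccnb2 was lowered (8.42 and 5.04% of all genes, list median -0.10). After thinning, 60.2% of contractile and 40.4% of negative periderm cells had a Top2a UMI. Of 18 examined S phase genes 2 were raised and none lowered against negative periderm, with a median of 0.12, against 4.00 and 3.22% of all genes. Pcna, the replication clamp gene, was raised at 55.3 against 32.7 CPM. None of 7 examined cycle inhibitors and D cyclins was raised or lowered there, and the inhibitor gene Cdkn1a was at 151, 159 and 35.5 CPM in the 3 groups. Among cells with no Mki67 or Top2a UMI, the 14 contractile list genes examined had a median log2 ratio of 1.20 to negative periderm, with 2.30 for Myl9.

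Immediate-early genes were lower than in negative periderm. Of 9 examined immediate-early and heat shock genes, 5 were lowered and none raised (3.22 and 4.00% of all genes), with a median of -0.71. Fos stood at 221 against 459 CPM and 286 CPM without periderm UMIs. Its difference from the latter cells was not called and turned direction under alternatives given in the closing section. Jun, Junb, Fosb and Ier2 were lowered as well, with log2 ratios between -0.71 and -1.64. Against cells without periderm UMIs, Fosb was lowered and the stress genes Hspb1 (334 against 79.9 CPM) and Atf3 (114 against 41.7 CPM) were raised.

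Beyond the lists, genes were ranked by their ratios with 5 CPM added. Besides Myl9, Tpm2, Csrp1, Krt17, Cnn2, Nexn, Diaph3 and Fhl2, the highest against negative periderm were Anxa3 (49.2 against 8.67 CPM, log2 ratio 2.50), the neural adhesion gene L1cam (23.4 against 3.94, 2.57), the N-cadherin gene Cdh2 (49.2 against 12.6, 1.96), the protease receptor gene F2rl1 (44.3 against 12.2, 1.86), Fxyd7, Prr11 and the FGF-binding protein gene Fgfbp1. L1cam was at 0.234 CPM in cells without periderm UMIs. Of these, Tpm2, Nexn, Fhl2, Anxa3, L1cam, Cdh2, F2rl1, Fxyd7, Prr11 and Fgfbp1 were examined through the contractile cells alone. The counts are small, since L1cam rested on 19 UMIs in 16 cells and Cdh2 on 40 UMIs in 23 cells. The largest decreases besides Fst, Krt15, Fosb, Egr1 and Cxcl14 were of the homeobox gene Barx2 (22.1 against 85.5 CPM, -1.95), Lbh, the mechanically gated channel gene Piezo2 (24.6 against 66.2, -1.43), Sash1 and Taf6l. Fst and the last 5 of these were examined through negative periderm alone. The log2 ratio of Barx2 ran from -4.20 to -1.15 over the alternatives. That of Anxa3 was 4.57 among cells with at most 5% mitochondrial UMIs, and the wide ranges of Anxa3 and L1cam are given in the closing section.

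Genes with the largest ratios to cells without periderm UMIs, after 5 CPM were added, also had UMIs in negative periderm. S100a14 was at 43.0 against 1.30 CPM, Ovol1, a transcription factor gene of stratifying epithelium, at 61.5 against 4.36, and the occludin gene Ocln at 62.7 against 4.51. Their levels in negative periderm were 35.1, 64.6 and 45.3 CPM. Gm2694 (81.1, 30.7 and 2.74 CPM in the 3 groups) and the smoothelin-like gene Smtnl2 (72.5, 44.5 and 3.41 CPM), were raised in both comparisons. Pvrl4 (nectin 4), Casz1 and Zfp750 were others of this set, and all of these except Pvrl4 were examined through the contractile cells alone. The largest decreases were of Rxfp1, Fst, Barx1, Wnt9b, Cxcl14, Tfap2b, the Wnt and BMP antagonist gene Sostdc1, the connexin gene Gjb2, Cyr61 and Ddhd2. Of these, Rxfp1, Fst, Barx1, Wnt9b, Gjb2 and Ddhd2 were examined through the other group alone.

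Tagln and Acta2 UMIs were also found outside the periderm. Of the cells with no periderm UMI, 161 had at least 2 of them, with a median of 6745 UMIs per cell, and 11.8% of these were called doublets. Against cells with neither, 50 of 6437 genes examined were raised (0.777%) and 52 lowered (0.808%), with a median over all genes of 0.00. Of 12 examined contractile list genes, Tpm1, Cnn2 and Myl9 were raised and none was lowered, and the median was 0.15. Myl9 was examined through the cells with Tagln or Acta2 UMIs alone, as were 29 of the 50 raised genes. Myl9 was at 48.6 CPM in these cells. Contractile periderm was also set beside these cells in steps of Tagln and Acta2 UMIs. With 2 UMIs, 20 contractile periderm cells had 105 CPM of Myl9 (63.0 to 164) and 96 cells outside had 37.4 CPM (24.4 to 54.7). Csrp1 was at 121 against 24.4 CPM and Cnn2 at 298 against 147 CPM, while Tpm1 was at 1311 against 1119 CPM. Cyr61 ran the other way, at 49.6 against 272 CPM. With 5 or more UMIs, where only 10 cells lay outside, Myl9 was at 329 (279 to 385) against 271 CPM (155 to 440). In this open step the numbers were not matched, since contractile cells had up to 48 UMIs and cells outside up to 17.

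At E9.5 the same rule took 23 of 12744 kept cells, with a median of 14574 UMIs, and 19 cells passed the periderm limit without Tagln or Acta2. Nebl, which is also a gene of heart muscle, supplied all periderm UMIs in 12 of the 23 cells, and 8 passed the limit without it. Pkp1, Krt14, Krt17 and Zfp750 were at 0. The keratins of simple epithelia, Krt8 and Krt18, were in all 23 cells, at 1147 and 1296 CPM, and Ppl was in 11 cells. The genes of heart muscle were present too, with Actc1 at 1045 CPM, Myl7 at 1203, Ttn at 1677 and Tnnt2 at 737.5 CPM, together with the cardiac regulators Nkx2-5 (126 CPM) and Myocd (266 CPM). Actc1 and Myl7 were found together in the same 11 cells, and the other 12 had no Actc1 UMI. The levels given, summed over all 23, thus mix cells with and without these genes. Epcam was found in 11 cells. Acta2 was at 2052 and Tagln at 916 CPM. The E9.5 cells were not called periderm as a group, and values of the stages are set side by side with no ratio and no reading of a difference, since the libraries differ in sorting, depth and gene list.

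**Figure D5:**
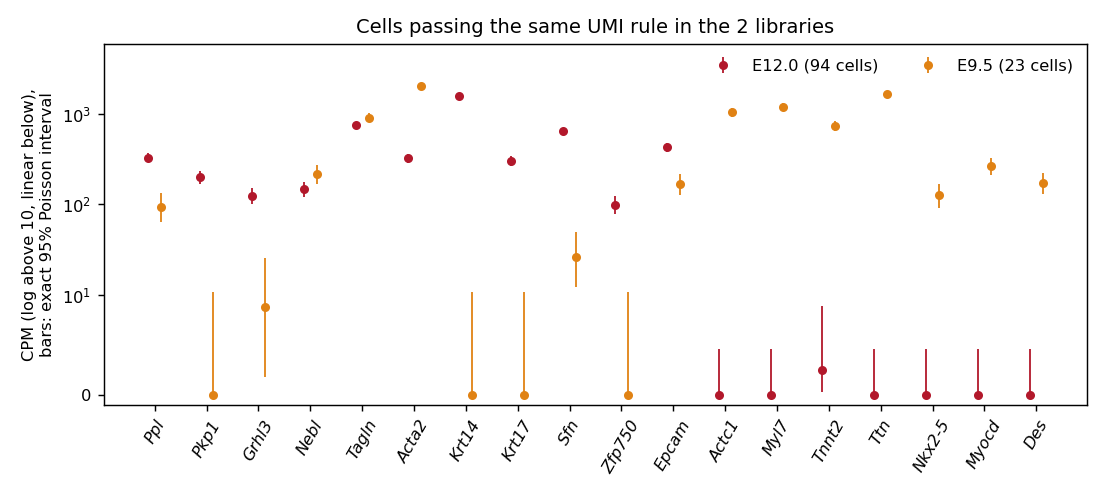
CPM (log above 10, linear below) of 18 genes in the cells that passed the same rule at E12.0 (red, 94 cells) and E9.5 (orange, 23 cells), with exact 95% Poisson intervals. Krt14 and Zfp750 were at 0 in the E9.5 cells, and Actc1, Myl7 and Ttn at 0 in the E12.0 cells. The libraries differ in sorting and depth, and the keratins Krt8 and Krt18, which all E9.5 cells had, are not drawn.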

How the data were processed

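The authors deposited UMI counts per gene and cell barcode, without normalization, made with Cell Ranger. The processing notes name version 2.0.0 and the builds GRCm38 and mm10, and the file headers version 3.1.0 (E12.0) and 6.1.2 (E9.5). The E12.0 counts sum to 78911671 UMIs and the E9.5 counts to 208540526. From these counts, sums per group, CPM, exact Poisson intervals of CPM, exact intervals of a ratio of 2 counts and exact Clopper-Pearson intervals of shares were computed with scipy 1.17.1 and numpy 2.4.6 under Python 3.11.15, and tested on simulated data. Tables were handled with pandas 2.3.3 and plotted with matplotlib 3.10.9. Neighbours came from scikit-learn 1.9.0 after normalization in scanpy 1.11.5. Scrublet (scanpy) used a score limit of 0.180 and a seed of 1, as did thinning to 4100 UMIs, which left out 1 contractile and 43 negative periderm cells. Where 1 group had no UMI, 3 counts stood in its place.

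The cells, gene lists and comparisons were chosen with earlier results of these data known. Genes named are those of the rule, the most abundant raised or lowered genes of each list, genes the study names for periderm, and the 15 largest increases and 10 largest decreases of each comparison, ranked by the ratio with 5 CPM added to both levels. Others, among them the levels given for unchanged list members, were chosen after their values were seen. Gene positions are from the GENCODE annotation of GRCm38. Alternatives changed the cell filter, the rule, the size criterion, the weighting of cells, doublets, sex, depth, cell cycle and region. Results for some of the genes are not reported here.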

Additional observations from a re-analysis of the deposited data

How the results depend on the processing

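Of 815 values recomputed under 20 alternatives, 651 stayed within their counting interval or, for counts, within 1.5 times the reported count, 160 moved and 4 turned direction. The contractile gene list kept a median between 0.99 and 1.28 against negative periderm and between 1.38 and 1.70 against cells without periderm UMIs. The log2 ratio to negative periderm ran from 2.24 to 3.35 for Myl9, 1.00 to 1.48 for Tpm1, 1.05 to 1.68 for Cnn2, 1.23 to 1.85 for Csrp1 and 0.04 to 2.01 for Krt17. It ran from 1.57 to 4.57 for Anxa3 and 1.49 to 4.06 for L1cam, from -2.72 to -1.002 for Krt15 and -4.16 to -2.09 for Fst, and from 0.32 to 1.10 for Top2a, whose call was lost at the low end. The number of contractile cells, 94 by the rule, was 28 with at most 5% mitochondrial UMIs, 47 with the rule applied after thinning, 62 with at least 4 Tagln or Acta2 UMIs, 55 with both genes, 24 with Xist and no Y-linked UMI and 56 with a Y-linked UMI. With a fold of 2, 42 genes were raised and 32 lowered against negative periderm, and 265 and 91 against cells without periderm UMIs. Lowered genes against negative periderm numbered 132 with the rule after thinning, 120 with a UMI asked in 25% of cells and 341 in 5%, and against cells without periderm UMIs 201 and 560 for the latter pair. At 5% of cells, 1 gene of the contractile list, Synpo2, was lowered in each comparison. Turned against cells without periderm UMIs were Top2a, with log2 ratios of -0.0509 (at most 5% mitochondrial UMIs) and -0.0405 (rule after thinning), and Fos, with 0.19 (rule after thinning) and 0.20 (no Cxcl14 or Tfap2b UMI), and the cause was not tested. The counts thinned to 4100 UMIs, the cells without Mki67 or Top2a UMIs and those without Cxcl14 or Tfap2b UMIs were chosen after seeing the data. No paired analysis was possible because each stage was 1 library. With 94 cells, a gene with 3 counts stands at 3.69 CPM, so lower levels rest on 1 or 2 UMIs.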
